A study of Mus musculus with 6 samples.

Results

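The 10 genes of the circadian clock and its output described here, Arntl, Clock, Per1, Per2, Per3, Nr1d1, Nr1d2, Nfil3, Dbp and Tef, were chosen by symbol from a table of 13490 genes, and all of them were found in it. The choice was made with earlier results of these data known. The table came from RNA sequencing of inguinal white adipose tissue, a subcutaneous fat depot, of wild-type male C57BL/6J mice aged 15 weeks. Of these, 3 mice were given sodium arsenite, an inorganic arsenic salt, at 300 ppb in their drinking water for 9 weeks, and 3 mice drank distilled water for the same time. Both groups thus shared strain, sex, age and depot, and the labels name no difference in treatment but the arsenic salt. The replicate label of an arsenite sample has letters before its number, unlike those of the other samples. The time of day at which tissue was taken is not given in the sources used here. A difference in level therefore cannot be told apart from one in clock phase or sampling time.

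The mammalian clock is a transcriptional feedback loop. ARNTL (BMAL1) pairs with CLOCK and activates genes that carry E-box sequences, among them the period genes, Nr1d1, Nr1d2, Dbp and Tef. The PERIOD proteins act with the cryptochromes to repress ARNTL and CLOCK, which closes the main loop. The nuclear receptors REV-ERB alpha and beta, products of Nr1d1 and Nr1d2, repress genes with a ROR response element, among them Arntl and Nfil3, and so form a second loop. DBP and TEF activate genes through D-box sequences, and NFIL3 (E4BP4) represses genes through the same sequences. In mouse fat the clock times lipid storage and release, and REV-ERB alpha is known in mouse brown fat as a repressor of Ucp1.

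The E-box, D-box and ROR element that define these roles were looked for in RefSeq promoters of build GRCm38.p6, 250 bases before to 50 bases after each annotated start. The table of promoters held 14 promoters of 9 of the genes, and Per2 had no entry. The matches are shown because these elements define the roles of Nr1d1 and Nfil3, the 2 genes that were called. In the sequences below, capitals mark the match. Bases are counted from the first transcribed base as annotated in RefSeq, with negative numbers before it. For Nr1d1, the last bases of the window were found in no transcript of the gene in the GENCODE M21 annotation. Its position numbers therefore rest on the RefSeq start alone.
Nr1d1, chr11:98775378-98775627, minus strand, the 250 bases before the start: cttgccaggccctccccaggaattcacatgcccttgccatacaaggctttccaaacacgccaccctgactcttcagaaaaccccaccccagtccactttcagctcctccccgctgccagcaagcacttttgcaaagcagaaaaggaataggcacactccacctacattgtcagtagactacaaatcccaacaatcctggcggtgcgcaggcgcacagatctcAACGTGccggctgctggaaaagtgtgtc
Nfil3, chr13:52981033-52981062, minus strand: gcgctcggaacTGACCTActaacacacatc
Arntl, chr7:113207530-113207559, plus strand: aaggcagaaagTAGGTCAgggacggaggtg
Per3, chr4:151044852-151044881, minus strand: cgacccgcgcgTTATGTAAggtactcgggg
Per3, chr4:151044805-151044834, minus strand: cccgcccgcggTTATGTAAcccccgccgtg
Per1, chr11:69098771-69098800, plus strand: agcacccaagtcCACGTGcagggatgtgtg
Tef, chr15:81802534-81802563, plus strand: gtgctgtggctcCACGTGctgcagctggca
Tef, chr15:81811264-81811293, plus strand: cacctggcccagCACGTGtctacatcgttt

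The E-box CACGTG, which reads the same on both strands, was found in a promoter of Per1 and in both promoters of Tef, and in 7.15% of all 32851 promoters in the table. Its variant CACGTT, searched on both strands, was found in Nr1d1 on the opposite strand, from base -28 to -23, and in 4.68% of all promoters. The ROR element core TAGGTCA, searched on both strands, was found in Nfil3 on the opposite strand, from base -12 to -6, and in Arntl from base 31 to 37. It was present in 2.61% of all promoters. The D-box TTATGTAA was found at 2 places in the Per3 promoter and in 0.938% of all promoters, and its variant TTACGTAA, in 0.119% of all promoters, was found in none of the 14. A match is a run of letters and not a measured binding site, and clock elements outside these windows were not searched.

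The deposited values are group means on a count-like scale, a log2 ratio of arsenite over water, and, under the heading PPEE, a posterior probability that both groups express the gene equally. No values of single mice were analysed here, so no mean below carries an SD and overlap between the groups could not be examined. Sequencing depth is known only from the labels, which put it at 20000000 mapped reads for each mouse. Genes were called where the PPEE did not exceed 0.05, which held for 99 of the 13490 genes (0.734%), 52 of them higher (0.385%) and 47 lower (0.348%) under arsenite. Of all genes, 95.0% had a PPEE above 0.9, and 54.5% had a log2 ratio below 0 in the authors' deposited table. Since these are bulk samples, fewer cells of a type and less RNA per cell cannot be told apart.

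Under arsenite, Nr1d1 was called higher and Nfil3 lower, and the other 8 clock and output genes were not called. Nr1d1 was 1.52-fold higher and Nfil3 was 1.92-fold lower under arsenite in the authors' deposited table. Called genes were thus 2 of 10 (20%), against 0.734% of the whole table. The 10 genes were chosen with earlier results of these data known, so this share describes the 10 genes only. At PPEE bounds of 0.01 and 0.1 the count was also 2 of 10, beside 0.467% and 0.882% of all genes, and with an absolute log2 ratio of at least 1 asked for as well it was 0 of 10, beside 0.0815%. The 8 genes not called had PPEE values from 0.976 to 0.999, in the range shared by most genes. Of the 10 genes, 5 had log2 ratios above 0 and 5 below, with a median of -0.0027, beside a median of -0.03 over all genes.

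**Figure D1:**
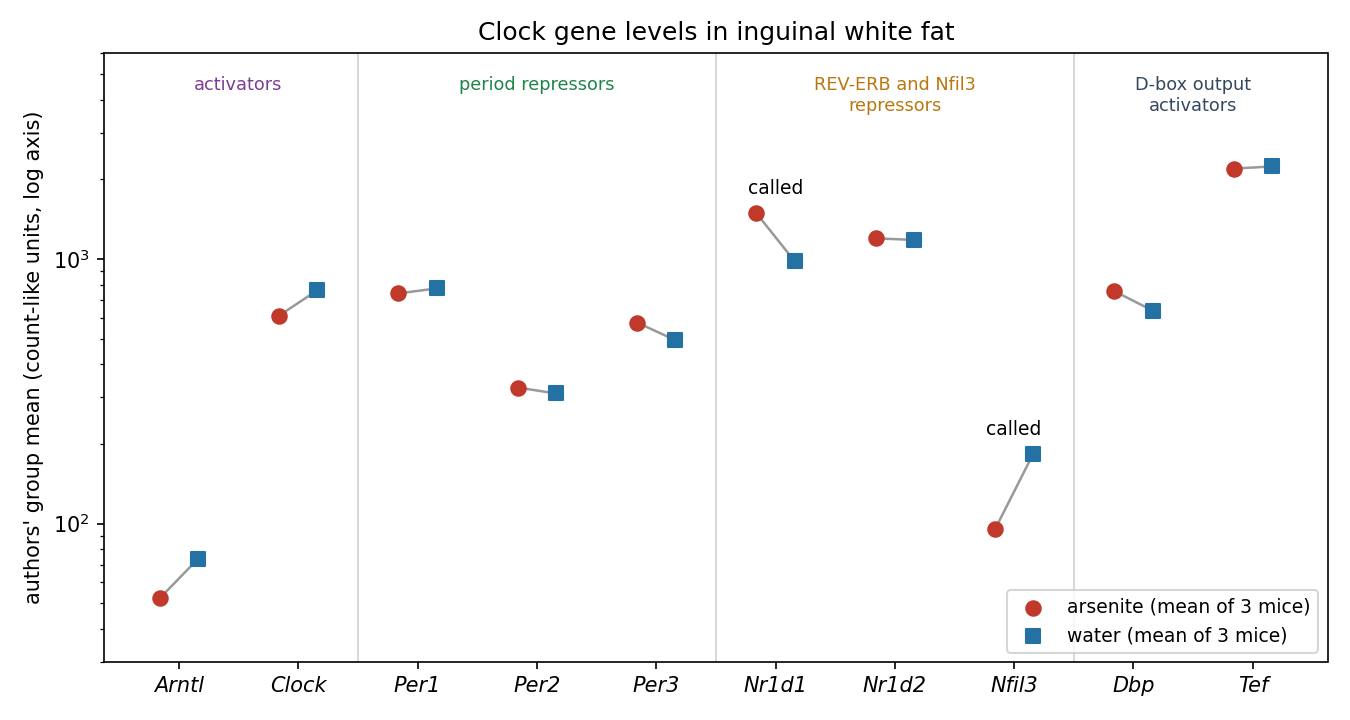
Group means of the 10 genes in count-like units on a log axis, arsenite (circles, 3 mice) and water (squares, 3 mice), ordered by role, with no error bars because values per mouse were not analysed here. Nr1d1 lay at 1488 under arsenite and 981 under water, and Nfil3 at 95.2 under arsenite and 183.5 under water. These are the 2 pairs marked as called.

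The activators came out with lower means under arsenite, without a call. Arntl, which supplies the rhythmic subunit of the activating pair in most mouse tissues, had an authors' mean of 52.2 under arsenite and 73.5 under water. In the authors' deposited table it stood at -0.49 on the log2 scale, PPEE 0.984, and 8.65% of all genes had a lower ratio. Clock, the partner subunit, had an authors' mean of 610.6 under arsenite and 761 under water. In the authors' deposited table it stood at -0.32 on the log2 scale, PPEE 0.976, and 17.8% of all genes had a lower ratio. Both ratios lay below the lower quartile of all genes, -0.23. Arntl was the member with the lowest mean in both groups, and 28.8% of all genes had a lower water mean. The median of the 2 log2 ratios was -0.40, with 0 of 2 called, and it stayed below 0 under every rescaling of the group means that was tried, from -0.38 to -0.25.

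The period genes, whose products repress the activating pair, were not called, and the ratios of Per1 and Per2 lay between the quartiles of all genes (-0.23 and 0.18). Per1, the member that also responds quickly to hormones and cyclic AMP, had an authors' mean of 741 under arsenite and 774 under water, and in the authors' deposited table its difference was -0.063 on the log2 scale at PPEE 0.998. Per2, a core part of the repressing complex in mice, had 326.6 under arsenite and 310.2 under water, and in the authors' deposited table its difference was 0.074 on the log2 scale at PPEE 0.998. Per3, a paralogue with a lesser part in the core loop, had 575 under arsenite and 493 under water, and in the authors' deposited table its difference was 0.22 on the log2 scale at PPEE 0.987. The median of the 3 log2 ratios was 0.074, and 0 of 3 were called. The sign of the Per1 ratio turned with scaling: it was above 0 under quantile normalization (0.036) and total-sum scaling (0.095).

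The REV-ERB genes and Nfil3 held both calls, in opposite directions. Nr1d1, encoding the haem-binding repressor REV-ERB alpha, had an authors' mean of 1488 under arsenite and 981 under water. In the authors' deposited table it stood at 0.60 on the log2 scale, PPEE 0.00412, which placed it 54th of all genes by PPEE. By size it was 27th of the 52 genes called higher, and 4.60% of all genes had a higher ratio. Nfil3, encoding the D-box repressor, had an authors' mean of 95.2 under arsenite and 183.5 under water. In the authors' deposited table it stood at -0.94 on the log2 scale, PPEE 3.75e-08, 7th of all genes by PPEE and 7th by size among the 47 genes called lower. A lower ratio was seen for 1.58% of all genes. Nr1d2, encoding REV-ERB beta, which overlaps in function with REV-ERB alpha, had 1196 under arsenite and 1180 under water, and in the authors' deposited table its difference was 0.020 on the log2 scale at PPEE 0.999. The median of the 3 ratios, 0.020, is that of Nr1d2 and does not describe a group whose members lay on both sides of 0. Whether the Nr1d1 ratio differs from that of Nr1d2 was not tested, since no spread between mice was at hand.

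A ratio of this size was not enough for a call. Of the 1352 genes whose log2 ratio was at least as far from 0 as that of Nr1d1, 42 were called (3.11%), and of the 373 at least as far as that of Nfil3, 14 were called (3.75%). Usp2, a clock-controlled deubiquitinase under E-box control, named after its value was seen, had an authors' mean of 333 under arsenite and 546 under water. On the log2 scale this was -0.71, at PPEE 0.998 in the authors' deposited table, so it was farther from 0 than the ratio of Nr1d1 and was not called.

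**Figure D2:**
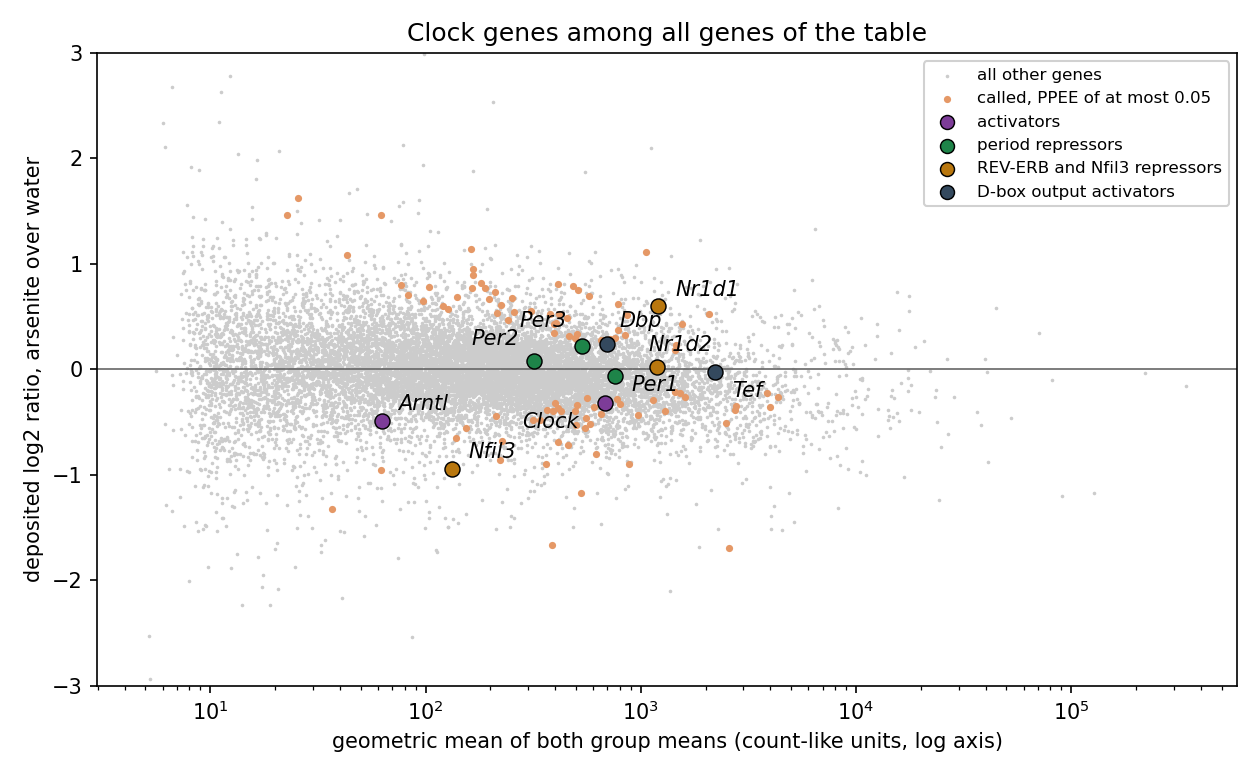
Deposited log2 ratio of arsenite over water (vertical axis) against the geometric mean of both group means (horizontal log axis, count-like units) for all genes, with called genes in orange and the 10 clock and output genes as large points coloured by role. Nr1d1 lies at 0.60 and Nfil3 at -0.94, while of the 1352 genes at least as far from 0 as Nr1d1 only 42 were called; 4 genes with an absolute log2 ratio above 3 are not drawn.

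The D-box activators were not called. Dbp, a strongly rhythmic output of the ARNTL and CLOCK pair in mouse tissues, had an authors' mean of 755 under arsenite and 638 under water, and in the authors' deposited table its difference was 0.24 on the log2 scale at PPEE 0.996. Tef, its relative of the same PAR bZIP family, had the highest means of the 10 genes, 2195 under arsenite and 2235 under water, and in the authors' deposited table its difference was -0.026 on the log2 scale at PPEE 0.999. The third member of that family, Hlf, had 292 under arsenite and 309 under water, and in the authors' deposited table its difference was -0.081 on the log2 scale at PPEE 0.997. None of the 3 activators passed the bound for a call, while the repressor acting on the same D-box, Nfil3, did; the difference between them was not tested. The sign of the Tef ratio turned under 3 rescalings, to 0.13, 0.03 and 0.13 under quantile normalization, upper-quartile scaling and total-sum scaling.

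Levels were compared between genes after division by the deposited gene length, in authors' mean per 1000 bases. Under arsenite, Nr1d1 was the highest of the 10 at 566 per 1000 bases, followed by Tef at 522 and Dbp at 450. Under water the order at the top was Tef at 531, Dbp at 380.2 and Nr1d1 at 373. Nfil3 stood 9th under arsenite at 47.2, below Per3 and Per2, and 7th under water at 90.9, above both. Arntl was the lowest in both groups, at 18.7 under arsenite and 26.3 under water. Which neighbours in this order differ beyond the spread between mice could not be examined.

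Quotients between 2 genes of the same group do not depend on how the 2 groups were scaled to each other. The quotient of Nr1d1 over Nfil3, per 1000 bases, was 12.01 under arsenite and 4.11 under water, a 2.92-fold difference. Dbp over Nfil3, the activator over the repressor of the D-box, stood at 9.54 under arsenite and 4.18 under water, and Tef over Nfil3 at 11.1 under arsenite and 5.85 under water. These 3 quotients share the Nfil3 values and are not separate observations. The difference in each quotient follows from the log2 ratios of its 2 genes given above. That of Nr1d1 over Nfil3 combines the 2 called genes and adds no evidence to their calls. Nr1d1 over Arntl, a repressor over a gene it represses, was 30.3 under arsenite and 14.2 under water, and Nr1d1 over its paralogue Nr1d2 was 2.196 under arsenite and 1.47 under water. Quotients within the other roles lay closer together: Clock over Arntl was 4.37 under arsenite and 3.88 under water, and Per1 over Per2 was 2.84 under arsenite and 3.13 under water. A difference between quotients does not show which of the 2 genes changed, and with no spread between mice none of these differences was tested.

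**Figure D3:**
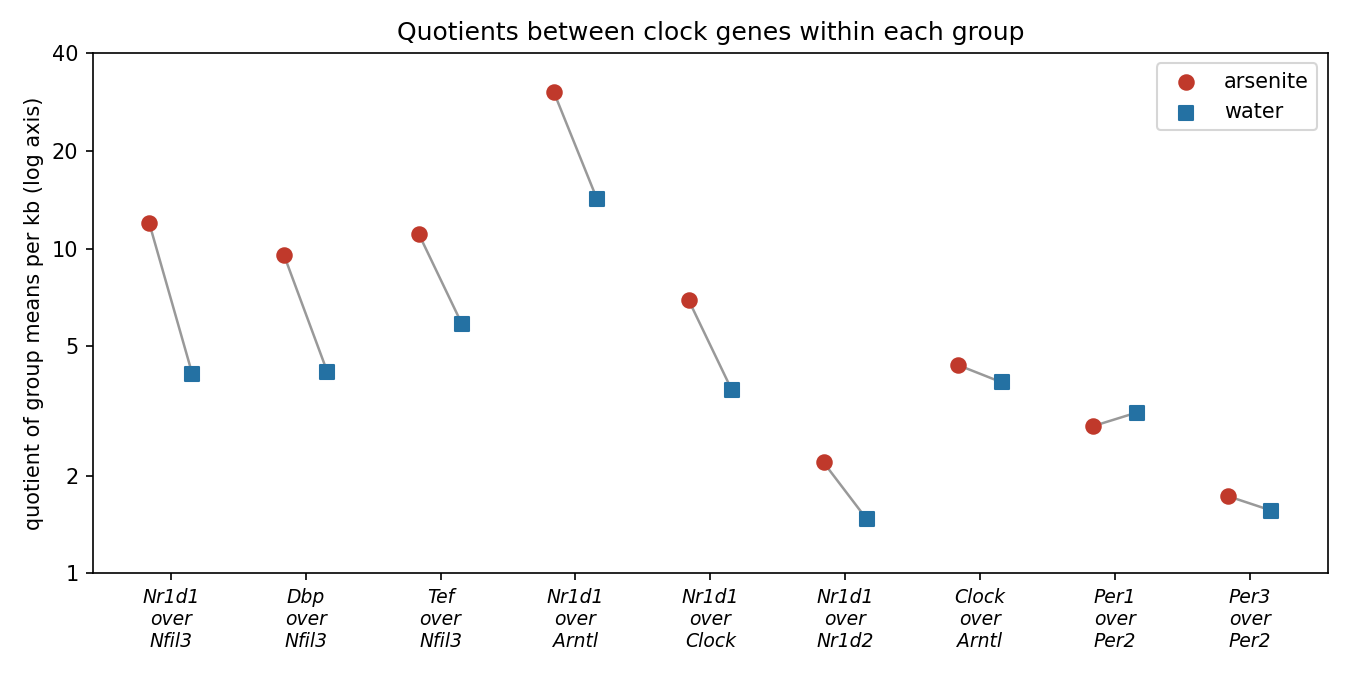
Quotients of authors' means per 1000 bases between pairs of clock genes (log axis), arsenite (circles) and water (squares), without error bars. The 3 quotients over Nfil3 lie 1.89-fold to 2.92-fold higher under arsenite, and those of Clock over Arntl, Per1 over Per2 and Per3 over Per2 differ less.

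Reads of overlapping genes could bear on the called gene Nr1d1. Its exons overlap those of the thyroid hormone receptor gene Thra on the opposite strand, and whether counting used strand is not given in the sources used here. By the GENCODE M21 annotation of GRCm38, 263 of its 3077 exonic bases (8.55%) also lie in exons of Thra. Thra itself had an authors' mean of 474 under arsenite and 427 under water, and in the authors' deposited table its difference was 0.15 on the log2 scale at PPEE 0.996. After subtracting from Nr1d1 the part of the Thra mean that these bases would hold if reads were spread evenly over Thra, the log2 ratio of Nr1d1 was 0.62. Dbp shares 539 of its 2993 exonic bases (18.0%) with Sphk2, a sphingosine kinase gene on the opposite strand, and its ratio after the same subtraction was 0.28. Sphk2 had means of 643 under arsenite and 626.5 under water. Nfil3 shares no exonic base with another gene, and of the 50-base stretches of its transcripts 0% occur in another gene. That share was also 0% for 8 of the other genes and 5.13% for Nr1d2.

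Gene spans, exons and introns together, were taken from RefSeq for GRCm38.p6, the build the labels name as GRCm38. Nr1d1 lies on chromosome 11 at 98767932 to 98775377, Per1 on the same chromosome at 69095108 to 69109965, and Nfil3 on chromosome 13 at 52967209 to 52982878. Arntl lies on chromosome 7 at 113178471 to 113314126 and Dbp on the same chromosome at 45705100 to 45710203. Clock lies on chromosome 5 at 76209868 to 76305603, Per2 on chromosome 1 at 91415977 to 91459351 and Per3 on chromosome 4 at 150997018 to 151044707. Nr1d2 lies on chromosome 14 at 18204056 to 18239106 and Tef on chromosome 15 at 81802673 to 81826863. The table gives 1 value per gene and group, so isoforms are not told apart.

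Other genes of the clock were not called either. Of 20 listed, 17 were in the table, 10 with ratios above 0 and 7 below. Their median log2 ratio was 0.05, beside -0.03 over all genes. At the PPEE bound 0 of the 17 were called, beside 0.734% of the whole table. With so low a share, a count of 0 in a list this short does not show that these genes were unchanged. The cryptochromes, partners of the period proteins, were Cry1 at 86.5 under arsenite and 82.4 under water, and Cry2 at 448 under arsenite and 401 under water. ROR alpha activates through the element at which the REV-ERB proteins repress, and its gene, Rora, stood at 72.7 under arsenite and 88.8 under water. The E-box repressors Bhlhe40 and Bhlhe41 had 778 under arsenite and 726 under water, and 458 under arsenite and 442 under water. Gm129, the gene now called Ciart, whose product represses ARNTL and CLOCK, had 42.3 under arsenite and 42.4 under water.

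Genes whose products modify or accompany the clock proteins were likewise not called. The casein kinase genes Csnk1d and Csnk1e, whose products phosphorylate PERIOD proteins, had 786 under arsenite and 766 under water, and 395 under arsenite and 374 under water. Btrc, whose product marks PERIOD proteins for degradation, had 178 under arsenite and 143 under water. The gene listed as 2310044G17Rik, now Cipc, a CLOCK-interacting repressor, had 355 under arsenite and 438 under water, and Nono, a cofactor of PERIOD proteins, 1037 under arsenite and 1092 under water. Arntl2, a paralogue of Arntl, had 21.9 under arsenite and 26.3 under water. Timeless, which works with Tipin at the replication fork and has a debated place in the mammalian clock, had the ratio farthest from 0 in this list. It had 54.6 under arsenite and 30.4 under water, a difference of 0.84 on the log2 scale at PPEE 0.821 in the authors' deposited table, and Tipin had 124.0 under arsenite and 109.7 under water.

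**Figure D4:**
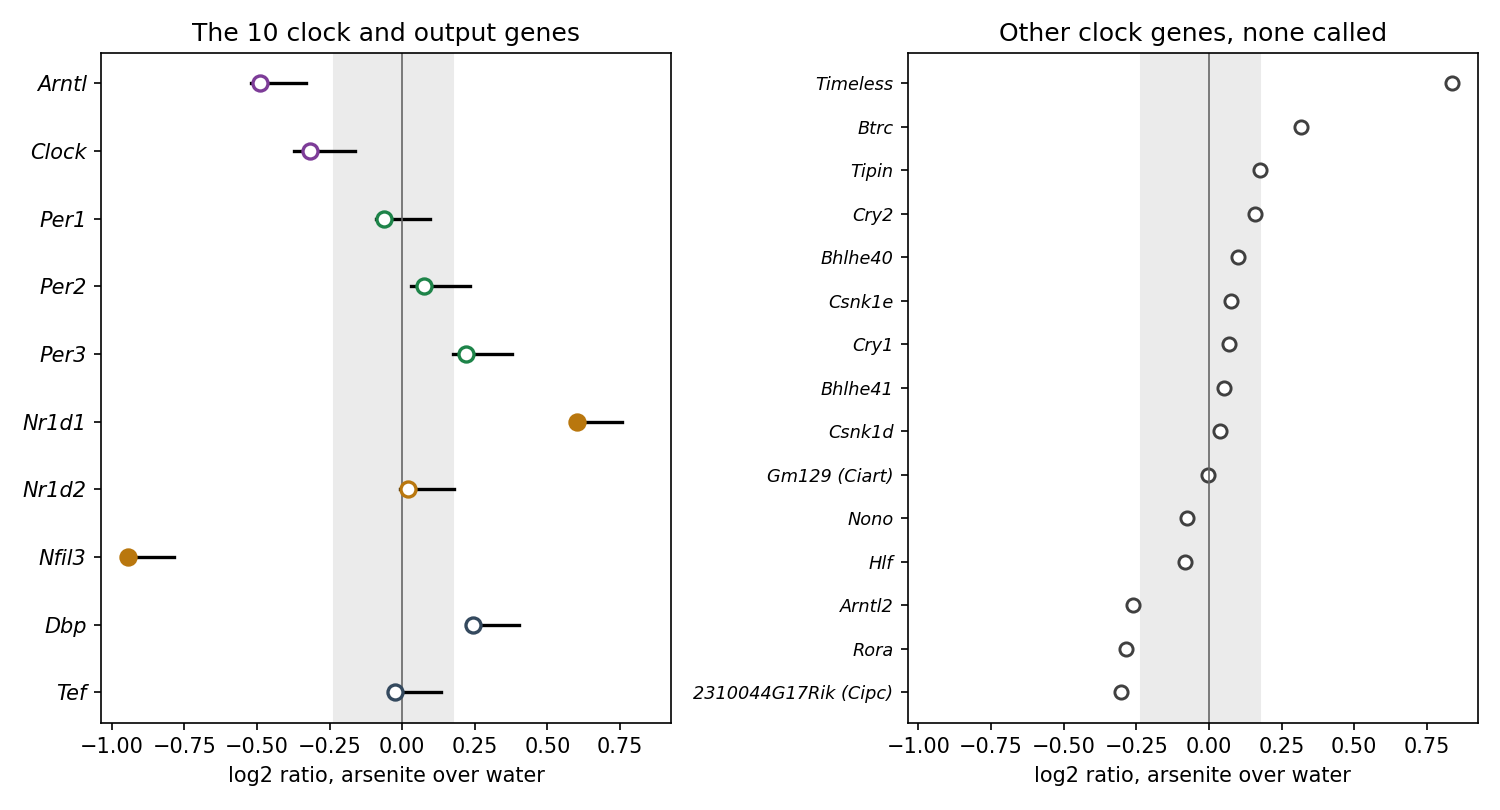
Log2 ratios of arsenite over water for the 10 clock and output genes (left, filled where called, with black bars for the range over the other ways of processing) and for 15 of the other clock genes (right, deposited ratios), with the grey band marking the range between the quartiles of all genes. Nr1d1 and Nfil3 keep their side of 0 over the whole bar, while the bars of Per1, Nr1d2 and Tef cross 0.

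Grouped by the element through which they are known to be controlled, the genes gave 2 lists that share members with the 10. The E-box list had 14 measured genes, 8 with log2 ratios above 0 and 6 below. Of these, 1 was called higher (Nr1d1) and 0 lower, beside 0.385% called higher and 0.348% called lower in the whole table. The median log2 ratio of the list was 0.036, beside -0.03 over all genes. It was 0.12 under quantile normalization, 0.095 under upper-quartile scaling and 0.19 under total-sum scaling. The median of all genes moved as well under these scalings, to -0.0011, 0.025 and 0.12. The list of genes under REV-ERB and ROR control had 6 measured genes of 7, among them Arntl, Clock and Nfil3. Its median log2 ratio was -0.23 (-0.072 under total-sum scaling). Its 6 genes were not all on one side of 0, with 4 below and 2 above. Of the 6, 1 was called lower (Nfil3) and 0 higher, beside the same shares of the whole table. The calls in both lists are those of Nr1d1 and Nfil3 given above, counted again.

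In each of 2 lists of genes downstream of the clock 1 gene was called lower under arsenite, beside 0.348% of the whole table. Among 4 genes known from mouse liver as targets of the D-box activators, Cyp2b10, a detoxifying cytochrome of a family of closely related copies among which reads can be split, was called, with an authors' mean of 22.6 under arsenite and 57.6 under water (PPEE 0.0126 in the authors' deposited table). The other 3 were not called, among them Por, the electron donor of these cytochromes, at 2976 under arsenite and 2514 under water. Among 5 metabolic genes known as clock targets, Gys2, a glycogen synthase, was called, with 645 under arsenite and 1205 under water (PPEE 1.24e-05 in the authors' deposited table). The other 4 were not called, and their ratios lay on both sides of 0. Nampt, the rate-limiting enzyme of NAD salvage, had 1798 under arsenite and 2537 under water. The lipase genes Pnpla2 and Lipe, whose products release fatty acids from stored fat, had 22800 under arsenite and 18899 under water, and 10364 under arsenite and 8082 under water. Klf10, a zinc-finger transcription factor gene, had 481 under arsenite and 324 under water. The median log2 ratio of the 5 was 0.27, with 3 above 0 and 2 below. Both lists were drawn up with the Cyp2b10 and Gys2 values known, so their counts describe the lists only.

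A wider list, formed after the values were seen, came from the gene ontology column of the table. Terms naming circadian or rhythmic processes were attached to 50 genes, 8 of them among the 10, with Nr1d2 and Tef lacking the term. Called were 3 of the 50 (6%), against 0.734% of the whole table, and 2 of the 3 were Nr1d1 and Nfil3. Of the other 42 annotated genes 1 was called (2.38%), Opn3, which encodes the non-visual opsin encephalopsin. It stood at 177 under arsenite, against 109.5 under water, and in the authors' deposited table its difference was 0.69 on the log2 scale at PPEE 8.36e-05. A pair of corepressors through which REV-ERB proteins act carry the term as well. Ncor1 had 1547 under arsenite and 1180 under water (PPEE 0.654 in the authors' deposited table), and Hdac3, the deacetylase that works with NCOR1, had 535 under arsenite and 526 under water.

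Signals other than the clock also act on these genes. Glucocorticoids induce Per1 in many mouse tissues. Of 12 glucocorticoid-induced genes 0 were called, beside 0.734% of the whole table. Their log2 ratios went from -0.92 to 0.72, with a median of -0.15. Klf9, the most abundant, had 1297 under arsenite and 1268 under water. Of 11 immediate early genes, which respond within minutes to many stimuli, 0 were called, beside the same share. Their log2 ratios went far to both sides of 0, with 5 above and 6 below. The lowest was -1.27 for Nr4a1, at 178 under arsenite and 430 under water, and the highest was that of Fosb, a gene of low level at 18.7 under arsenite and 7.94 under water. Jun, the most abundant, had 467 under arsenite and 483 under water. The lowest PPEE was 0.927 in the glucocorticoid list and 0.976 in the immediate early list, in the authors' deposited table. With so few genes called in the whole table, a count of 0 in lists this short says little about them. Whether these signals differed between the groups was not tested.

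Markers of fat cells and of skeletal muscle were abundant in both groups. Outside the adipocyte list, summed levels differed between the groups. The sums were not tested, and 1 of these markers was called, beside 0.734% of the whole table. All 8 adipocyte markers were measured and 0 called, with a summed level of 296004 under arsenite and 290506 under water. Most of it came from the fatty acid carrier Fabp4, at 218556 under arsenite and 223241 under water. The 6 brown and beige markers summed to 21949 under arsenite and 54528 under water, all 6 with ratios below 0, 0 called, and with Ucp1, the heat-producing uncoupling protein, the most abundant. All 8 endothelial markers were measured, 7 with ratios above 0 and 0 called, with a summed level of 4720 under arsenite and 2795 under water. Of their means, not divided by length, that of Cdh5 was highest under arsenite (1085) and that of Pecam1 under water (644). The 9 skeletal muscle markers, led by the fast myosin Myh4, summed to 152760 under arsenite and 202139 under water, 7 with ratios below 0 and 0 called. Macrophage markers, led by Mrc1, summed to 2101 and fibroblast markers, led by the collagen gene Col3a1, to 14576 under arsenite, against 2289 and 12449 under water, with 0 called in either list. Of 9 lymph node and lymphocyte markers 5 were measured, 1 with a ratio above 0 and 4 below. They summed to 104.2 under arsenite and 215 under water. Most of this difference lay in the chemokine Ccl21a, listed at 0 under arsenite and at 79.5 under water. It was the only marker called. Cxcl13, the most abundant under arsenite, went the other way, at 78.6 under arsenite and 75.3 under water. The part of these differences in the values of Nr1d1, Nfil3 and the other clock genes was not tested.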

How the data were processed

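RNA sequencing of inguinal white adipose tissue was compared between 3 arsenite-treated and 3 water-treated mice, grouped by the treatment label. Per the labels' protocols, reads were aligned to GRCm38 with 20000000 mapped reads per sample. Bowtie2, HISAT and RSEM appear in the submitters' processing notes, with neither version nor role. What software, scaling and gene filter gave the comparison is not given in the sources used here. Group means of gene abundance, a signal on a count-like scale averaged by the authors over each group's samples, summed to 7716846 for arsenite and 8608581 for water. Per the file headers, a log2 ratio of treatment over control was deposited too; recomputed from the means, its values equal a log2 ratio with 0.574 added to both means, so the change of low genes is understated. PPEE was deposited as a score between 0 and 1; EBSeq uses this name for a posterior probability of equal expression. The control column was taken as water and the treatment column as arsenite.

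Calls at a PPEE of at most 0.05 replace tests of this work's own, because values per mouse were not analysed here. Samples carry separate numbers in the labels and were taken as separate mice. The clock genes and all lists were chosen with earlier results of these data known. Named were all 10 genes, all measured other clock genes and, from each other list, every called gene or else the most abundant one; a few listed genes are counted in their lists but not reported here by name. Outside that rule, and chosen after their values were seen, were Usp2, Por, Nampt, Pnpla2, Lipe, Klf10, Nr4a1 and Fosb. So were Cdh5, Cxcl13, Opn3, Ncor1, Hdac3, Thra and Sphk2. List symbols missing from the table were looked up by RefSeq gene ID. Alternatives were 3 scalings of the means, added constants of 0.1 and 1, a minimum mean of 50, other PPEE bounds, a minimum absolute log2 ratio of 1, and removal of the length trend (lowess, span 0.3); the ratio of summed means and the antisense subtraction were added after seeing the data. The quotients between genes were not planned. Quantile normalization, upper-quartile scaling and trend removal were tested on simulated data, and total-sum scaling was not. The work used matplotlib 3.10.9, statsmodels 0.14.6, scipy 1.17.1, pandas 2.3.3 and numpy 2.4.6 under Python 3.11.15.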

Additional observations from a re-analysis of the deposited data

How the results depend on the processing

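Nr1d1 and Nfil3 kept their direction under every alternative tried, with log2 ratios from 0.60 to 0.76 and from -0.95 to -0.79. Arntl (-0.52 to -0.33), Clock (-0.37 to -0.16), Per2 (0.031 to 0.23), Per3 (0.18 to 0.38) and Dbp (0.24 to 0.40) did so too. Ratios near 0 changed sign: Per1 to 0.036 under quantile normalization and 0.095 under total-sum scaling, Tef to 0.13, 0.033 and 0.13 under quantile normalization, upper-quartile scaling and total-sum scaling, and Nr1d2, with the median of its role group, to -0.0081 after removal of the length trend. Total-sum scaling raised the median log2 ratio of all genes by 0.16, and the other alternatives moved it by under 0.1. Upper-quartile and total-sum scaling moved nearly all genes alike, and an added constant cannot turn a sign. Ratios farther from 0 than these shifts therefore had to keep their direction there. A kept direction says nothing about the spread between mice. The 2 calls stood at PPEE bounds of 0.01 and 0.1 and with a minimum mean of 50, and 0 of the 10 were called when an absolute log2 ratio of at least 1 was also asked for. A PPEE could not be recomputed after rescaling, so the calls themselves were not tested against scaling. No replicate could be left out because only group means were used. No paired analysis was possible because the groups share no replicate numbers. Depth per library was not known beyond the stated mapped reads, so counting error could not be given for Arntl and Nfil3, the genes with the lowest means.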
